A study of Mus musculus with 4 samples.

Results

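The mast cell and basophil proteases are 8 mouse genes, Mcpt1, Mcpt2, Mcpt4, Cma1, Mcpt8, Cpa3, Tpsb2 and Tpsab1, taken by symbol from the 31053 genes listed in 4 single-cell RNA libraries. All 8 were found, each under 1 gene ID. They were listed by name with earlier results of these libraries known, and their raw UMIs (unique molecular identifiers, each standing for 1 captured RNA molecule) across cell classes and libraries are therefore given as a description. The cells were leukocytes, enriched by sorting for CD45, from pancreatic ductal adenocarcinomas that the B6KPC3 tumour line formed in the pancreas of C57BL/6 mice. Mice with tumours of 7 days received the compound AT38 at 30 mg/kg per day, dissolved in 1% carboxymethyl cellulose in water, or that vehicle alone, by intraperitoneal injection for 7 days. There were 2 libraries of AT38-treated mice and 2 libraries of vehicle-treated mice, and each library pooled 4 mice. AT38 is known here only by this code name, and the age and sex of the mice were not given in the sources used here. The library was the replicate, so a p-value here refers to the spread among pools of mice, and with 2 against 2 the smallest exact two-sided permutation p is 0.333.

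Mast cells store preformed proteases in granules, bound to heparin and other chains of the proteoglycan serglycin, and release them when antigen cross-links IgE on the high-affinity IgE receptor. Fcer1a and Ms4a2 encode the alpha and beta chains of that receptor, which basophils also carry. In mice, Mcpt1 and Mcpt2 encode chymase-family proteases of mucosal mast cells, whereas Mcpt4, Cma1 (mMCP-5), the carboxypeptidase gene Cpa3 and the tryptase genes Tpsb2 (mMCP-6) and Tpsab1 (mMCP-7) are best known from connective tissue mast cells. Mcpt8 encodes a serine protease used as a marker of mouse basophils. C57BL/6 mice are known to lack the Tpsab1 protein because of a change at a splice site of the gene.

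The members fall into 3 loci (GRCm38, the assembly of mm10, GENCODE release M21). The 4 chymase-family genes and Mcpt8 lie within 143.8 kb of chromosome 14, with Cma1 at chr14:55941451-55944675 (minus strand), Mcpt1 at chr14:56017971-56020384 (plus), Mcpt2 at chr14:56042041-56044642 (plus), Mcpt4 at chr14:56059629-56062313 (minus) and Mcpt8 at chr14:56082166-56085273 (minus). The tryptase genes are neighbours, Tpsab1 at chr17:25343245-25345562 (minus) and Tpsb2 at chr17:25366305-25369098 (plus), and Cpa3 is at chr3:20215620-20242181 (minus). All 8 are annotated as protein-coding. UMIs of this chemistry are read from the 3' end of a transcript. Among the 50-base words of the last 400 bases of each transcript, 15.9% of those of Cma1 also occur in the gene model Gm48934 and 14.5% of those of Mcpt4 in Cma2. Such words alone do not tell the genes of a pair apart, and how reads of them were counted was not examined here. No word of the other 6 members occurs in another gene.

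Because the members were high in the same rare cells, the stretch before the transcription start is shown for those with a motif of the GATA factors, of which Gata2 is the main one in mast cells. RefSeq (GRCm38.p6) gave a promoter entry for 5 members, and the 250 bases before the start were searched on both strands for AGATAA and for the same letters with T in place of the leading A, G in place of the trailing A, or both changes. These letters were found in 4 of the 5 windows, against 26.5% of 32851 windows of the same length, and a match of letters is not a measured binding site. Capitals mark the motif, the sequences run 5' to 3' on the strand of the gene, and the capitals in Cma1 read AGATAG on the opposite strand.
Mcpt1, chr14:56017714-56017963, plus strand: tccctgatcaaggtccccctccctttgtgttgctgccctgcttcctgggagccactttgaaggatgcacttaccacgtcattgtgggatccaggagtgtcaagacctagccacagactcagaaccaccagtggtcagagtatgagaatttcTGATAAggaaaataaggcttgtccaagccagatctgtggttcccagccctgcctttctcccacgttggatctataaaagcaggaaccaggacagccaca
Mcpt4, chr14:56062311-56062560, minus strand: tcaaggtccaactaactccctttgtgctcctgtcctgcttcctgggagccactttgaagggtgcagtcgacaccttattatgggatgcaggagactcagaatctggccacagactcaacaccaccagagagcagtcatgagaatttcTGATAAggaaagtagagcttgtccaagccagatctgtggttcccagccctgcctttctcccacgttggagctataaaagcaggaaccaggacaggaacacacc
Cma1, chr14:55944676-55944925, minus strand: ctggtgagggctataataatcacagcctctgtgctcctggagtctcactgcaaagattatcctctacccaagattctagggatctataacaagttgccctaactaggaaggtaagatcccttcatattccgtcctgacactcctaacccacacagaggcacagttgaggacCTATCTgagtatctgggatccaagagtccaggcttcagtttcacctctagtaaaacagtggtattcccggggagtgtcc
Cpa3, chr3:20242182-20242431, minus strand: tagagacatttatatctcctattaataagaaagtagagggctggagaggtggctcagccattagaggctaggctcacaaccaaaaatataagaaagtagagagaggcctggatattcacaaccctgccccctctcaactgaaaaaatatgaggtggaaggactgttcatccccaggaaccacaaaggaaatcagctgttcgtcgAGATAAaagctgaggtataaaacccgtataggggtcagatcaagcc
The motif began 99 bases before the start in Mcpt1 and 103 in Mcpt4, and those windows were identical at 81.0% of aligned positions (209 of 258), gaps included. It began 79 bases before the start in Cma1 and 46 in Cpa3. The other pairs among the 5 windows were identical at 45.0% to 50.4%. The window of Mcpt8 held none of the searched letters.

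The libraries held 24294215 to 34386076 UMIs as deposited, and 14235 of 18001 barcodes were kept as cells (2909 to 4717 a library, with a median of 3003 to 4154 UMIs per cell). Of the kept barcode sequences 15 occurred in more than 1 library, and none of these was in a cell with a UMI of Ms4a2 or Fcer1a. The members were measured deeply for so few cells, with 89105 UMIs in kept cells, which was 73.1% of those deposited. The kept part was uneven, at 67.0% and 76.1% in the AT38 libraries and 80.3% and 70.7% in the vehicle libraries. Of the 302 barcodes that passed the minima on genes and UMIs and had a UMI of Ms4a2 or Fcer1a, 41.7% exceeded the 10% limit on mitochondrial UMIs, against 13.3% of all barcodes passing those minima.

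In 1 of the 10 named cell classes, a cluster of 110 cells (0.773% of kept cells), the cells carried the markers of mast cells and basophils. All 12 markers used for the name, none of them a member, were detected in at least 10% of its cells, among them Ms4a2 in 88.2%, Fcer1a in 91.8%, Gata2 in 88.2%, Cd200r3 in 80.9% and Kit, the stem cell factor receptor of mast cells, in 95.5%. Markers that separate basophils were scarce in it, with Mcpt8 in 26.4% of cells and Itga2 in 6.36%. The name is therefore mast cell and basophil-like, with Kit-positive cells as the bulk. The cluster held 25 and 22 cells in the AT38 libraries and 31 and 32 cells in the vehicle libraries, at a median of 6244.5 UMIs a cell over the 4 libraries. Of the kept cells, 159 (1.12%) had at least 1 UMI of Ms4a2 or Fcer1a, and 108 of the 110 clustered cells were among them. The 51 such cells in other classes were weakly marked, since 48 of them had a single UMI of the 2 genes, against a median of 11 in the cluster.

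Levels are given as CPM, the UMIs of a gene scaled to a total of 1000000 UMIs over the cells in question. As each UMI stands for 1 transcript end, they were not divided by gene length. In the mast cell and basophil-like cells the 8 genes together reached 96768 CPM. Mcpt2 led with 32979 CPM and Mcpt1 followed with 24529 CPM, an order found in each of the 4 libraries. Cpa3 (10438 CPM), Tpsb2 (9713 CPM), Cma1 (9002 CPM) and Mcpt4 (8764 CPM) formed a close second tier. Cpa3 was above Tpsb2 in each library, while the places of Cma1 and Mcpt4 changed between libraries. Tpsab1 at 744 CPM and Mcpt8 at 599 CPM were lowest, in an order that changed between libraries. Breadth followed another order, for Cpa3 was detected in 99.1% of the cells, Cma1 in 91.8%, Tpsb2 in 89.1%, Mcpt4 in 88.2%, Mcpt2 in 87.3%, Mcpt1 in 77.3%, Tpsab1 in 68.2% and Mcpt8 in 26.4%. The most abundant transcripts were thus absent from more cells than Cpa3 was.

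**Figure D1:**
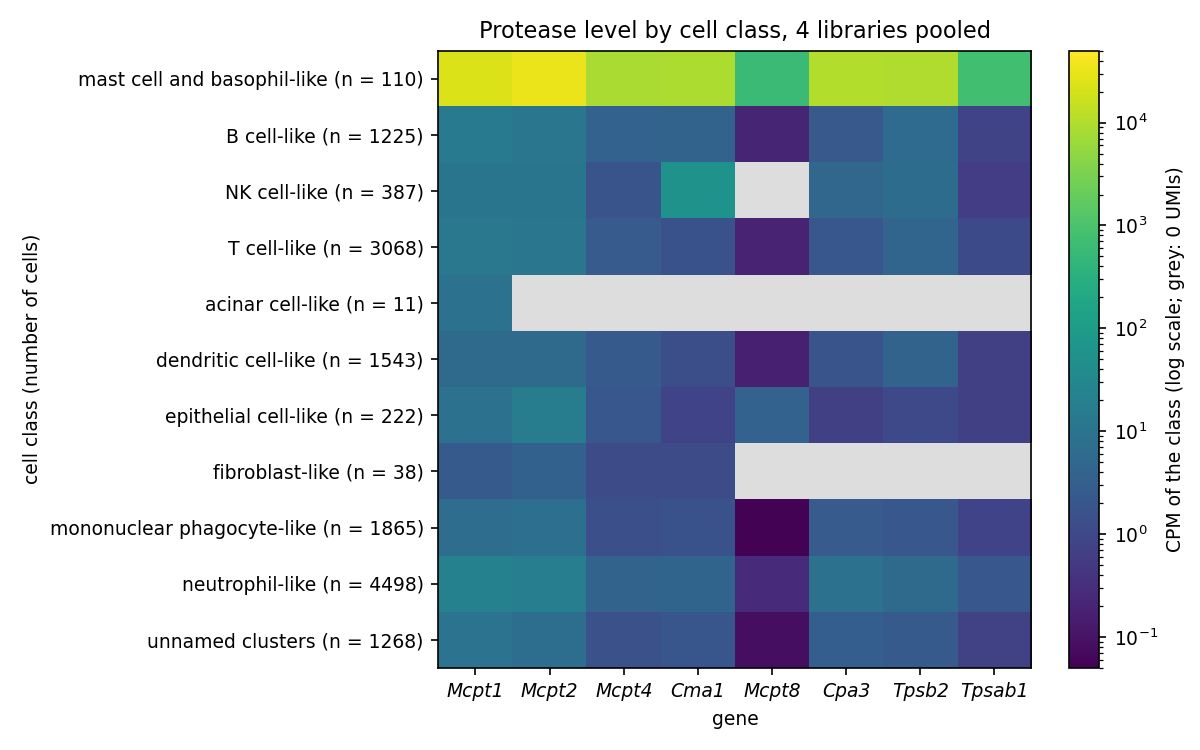
Level of each protease in each cell class as CPM of the pooled 4 libraries, on a logarithmic colour scale, with grey where no UMI was counted and the number of cells beside each class. The mast cell and basophil-like row lies between 599 and 32979 CPM, while no other class exceeds 22.2 CPM except NK cell-like cells for Cma1, at 59.8 CPM.

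Outside this class the levels were lower by orders of magnitude. Mcpt1, the most frequent member there, stood at 22.2 CPM in neutrophil-like, 14.7 CPM in B cell-like and 12.7 CPM in T cell-like cells. The libraries ranged over 12.2 to 30.2, 4.58 to 29.7 and 6.98 to 18.7 CPM. Neutrophil-like cells were the highest of these classes in each library, and the order of the others changed. At least 1 Mcpt1 UMI was found in 5.31% of B cell-like cells (median 3028 UMIs) and 5.87% of T cell-like cells (median 4090 UMIs), classes not known to make it, against 77.3% of mast cell and basophil-like cells (median 6244.5 UMIs). Shares of this size are read as background and not as expression. No empty droplets were analysed here, and the source of these UMIs was not tested. Of the member UMIs in all other kept cells, 30.6% were Mcpt1, 29.7% Mcpt2, 7.14% Mcpt4, 8.76% Cma1, 8.79% Cpa3 and 10.9% Tpsb2, against 25.3%, 34.1%, 9.06%, 9.30%, 10.8% and 10.0% of those in the mast cell and basophil-like cells, in the same order of genes. Mcpt8 made up 1.27% and Tpsab1 2.86% outside, against 0.619% and 0.768% inside. NK cell-like cells, described next, held 99 of the Cma1 UMIs outside, and without them Cma1 was 5.98% of the 3062 member UMIs left.

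Of all member UMIs in kept cells, 96.6% were in cells with a UMI of Ms4a2 or Fcer1a, with 96.1% and 95.9% in the AT38 libraries and 97.1% and 96.7% in the vehicle libraries. The share was 97.5% for Mcpt4, 97.2% for Cpa3, 96.9% for Mcpt2, 96.8% for Tpsb2, 96.6% for Cma1 and 95.7% for Mcpt1. It was lower for Mcpt8 at 93.4% (535 of 573 UMIs) and lowest for Tpsab1 at 87.9% (661 of 752 UMIs). Mcpt8 was the least even across libraries, at 81.6% and 91.2% in AT38 and 98.1% and 95.3% in vehicle. Counting the cells of the cluster in place of receptor-positive cells gave 96.4% for the sum of members. Of the 51 receptor-positive cells outside the cluster, 21 had any member UMI and 2 had more than 10, the highest being a dendritic cell-like cell with 129, and the median was 0.

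Cma1, the gene of mouse mast cell protease 5, departed from this pattern in natural killer cells. NK cell-like cells had 99 Cma1 UMIs in 57 of 387 cells (14.7%, 95% Wilson interval 11.5% to 18.6%, counting error only). The level was 70.7 and 54.2 CPM in AT38 libraries and 39.8 and 70.8 CPM in vehicle libraries. The share of cells was 16.7% and 13.4% in AT38 libraries and 13.3% and 14.9% in vehicle libraries, so all 4 libraries showed it and the groups overlapped. Over all classes other than NK and mast cell and basophil-like, Cma1 stood at 1.94 CPM in 1.10% of cells, at a median of 3579 UMIs against 3801 in NK cell-like cells. The next classes, neutrophil-like cells at 4.23 CPM and B cell-like cells at 3.99 CPM, overlapped each other over the libraries, and none of their libraries exceeded 10.4 CPM. After each cell was thinned to 1000 UMIs, 5.54% of NK cell-like cells still had a Cma1 UMI, and B cell-like cells had the next highest share at 0.496%.

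The other members were far lower than Cma1 in NK cell-like cells, with Mcpt1 and Mcpt2 at 10.9 CPM each, Cpa3 at 4.83 CPM, Mcpt4 at 1.81 CPM and Tpsab1 at 0.604 CPM. Tpsb2 was at 6.65 CPM (11 UMIs), its highest outside mast cell and basophil-like cells, with 3.50 to 10.4 CPM over the libraries against 3.61 CPM over the remaining classes, and that range overlapped with B cell-like cells (2.46 to 10.1 CPM). Mcpt8 had a UMI in 0 of 387 cells, which allows a share of cells with a UMI of up to 0.775% at 3 counts. Cma1 was 62.7% of the member UMIs of NK cell-like cells, against 9.30% in mast cell and basophil-like cells. NK cell-like cells with a Cma1 UMI had another member in 8 of 57 cells, and those without had one in 43 of 330. None of the 57 had a UMI of Ms4a2 or Fcer1a, against 2 of the 330 without Cma1. Gzma, the granzyme A gene of cytotoxic cells and a marker used to name the class, was in all 57 and in 276 of the 330. Of the 57, 19 had at least 2 Cma1 UMIs. The 50-base words shared with Gm48934 apply to these reads too, and their part in the count was not tested.

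**Figure D2:**
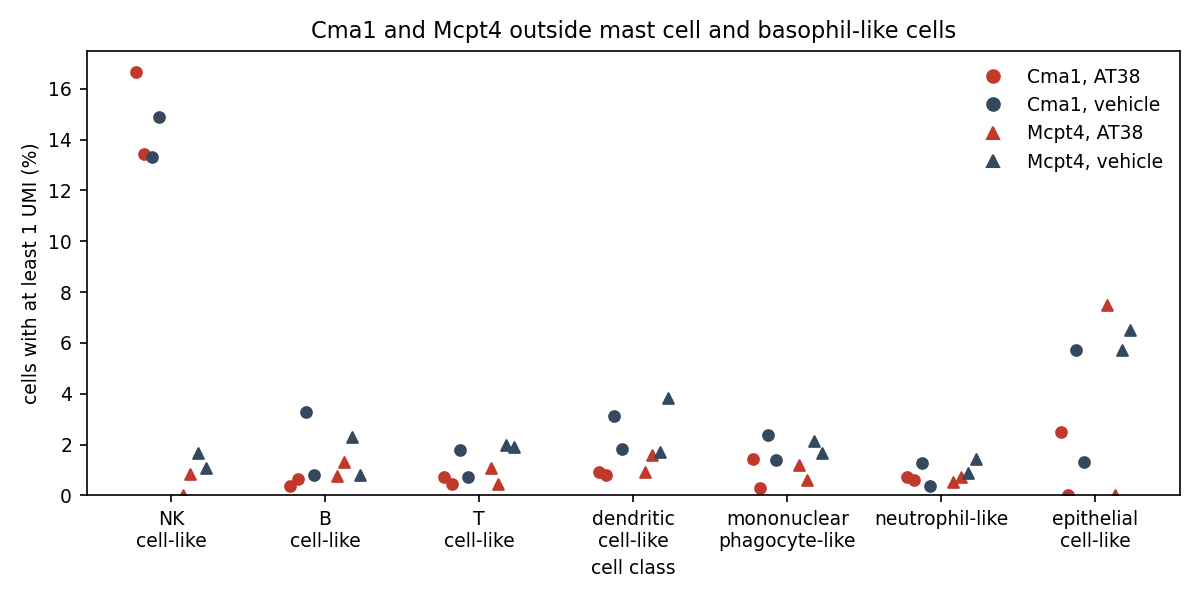
Share of cells with at least 1 UMI of Cma1 (circles) or Mcpt4 (triangles) in 7 classes other than mast cell and basophil-like, 1 point per library, AT38 in red and vehicle in dark blue. Cma1 in NK cell-like cells lies at 13.3% to 16.7% in the 4 libraries, and Mcpt4 stays at or below 1.67% there.

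A smaller departure concerned Mcpt8, the basophil protease, in epithelial cell-like cells, of which 13 of 222 held 28 UMIs of it. These were 7 and 13 UMIs in AT38 libraries and 1 and 7 UMIs in vehicle libraries. The cells were deep, with a median of 114211 UMIs against 11816 in epithelial cell-like cells without Mcpt8, 8 of the 13 also had another member, and no epithelial cell-like cell had a Mcpt8 UMI after thinning to 1000 UMIs. All 13 had the keratin gene Krt18 and none had a UMI of Ms4a2 or Fcer1a. Depth thus moved with this result, and its part was not tested.

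Within the 110 mast cell and basophil-like cells the chymase-family genes differed widely from cell to cell. Mcpt1 had a median of 99 UMIs a cell (0 to 1357), Mcpt2 127.5 (0 to 1858), Mcpt4 43 (0 to 345) and Cma1 35.5 (0 to 995). Most cells combined both kinds, as 74 had more than 10 UMIs of Mcpt1 and Mcpt2 and also more than 10 of Mcpt4 and Cma1. Mcpt1 and Mcpt2 together outnumbered Mcpt4 and Cma1 in 72 cells, the reverse held in 34, and they were equal in 4. The 34 cells were 11 of 25 and 4 of 22 in the AT38 libraries and 12 of 31 and 7 of 32 in the vehicle libraries, that is 44.0% and 18.2% with AT38 and 38.7% and 21.9% with vehicle, which overlap. In 11 cells more than 10 UMIs of Mcpt4 and Cma1 went with at most 1 of Mcpt1 and Mcpt2, and in 3 cells more than 10 UMIs of Mcpt1 and Mcpt2 went with at most 1 of Mcpt4 and Cma1.

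**Figure D3:**
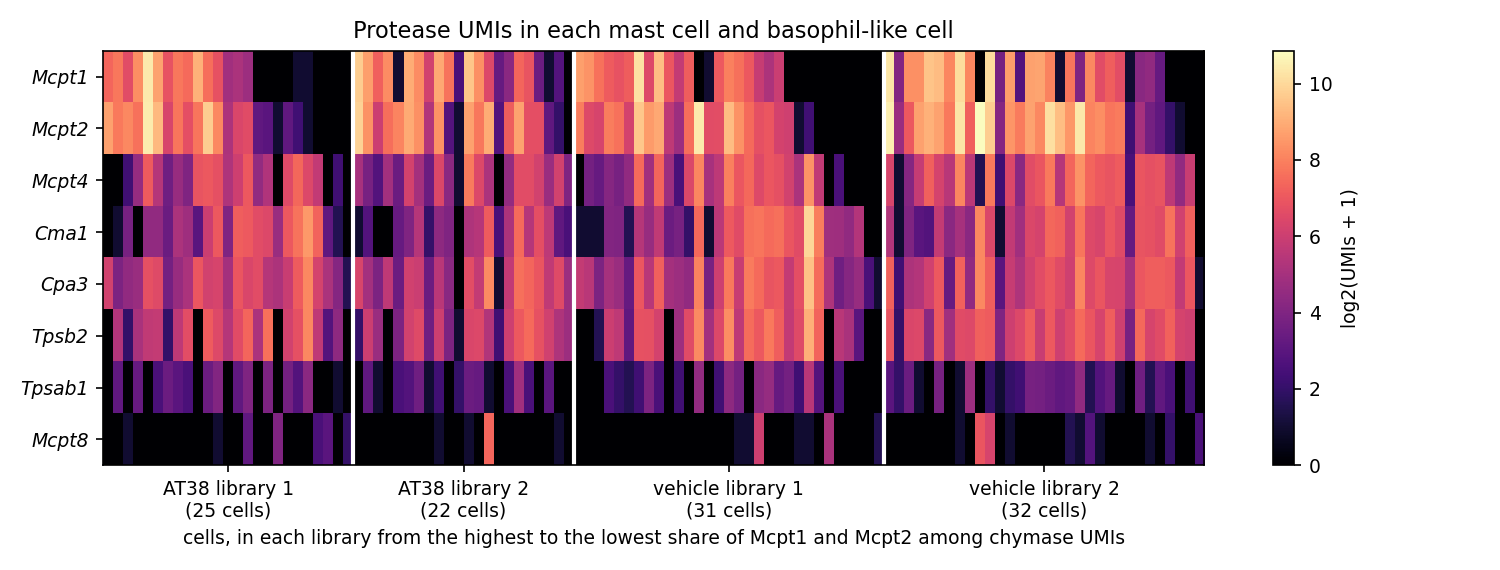
UMIs of the 8 proteases in each of the 110 mast cell and basophil-like cells, as log2(UMIs + 1), 1 column per cell, grouped by library with AT38 on the left and sorted within each library by the share of Mcpt1 and Mcpt2 among the UMIs of the 4 chymase-family genes. Cpa3 is present in nearly every column, Mcpt1 and Mcpt2 fade together towards the right of each library, and Mcpt8 is high in few cells.

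Across the cells, Mcpt1 and Mcpt2 went together (Spearman's rho 0.71 over 110 cells, UMIs per 10000), as did Cma1 with Cpa3 (0.76) and with Tpsb2 (0.67). Mcpt4 went with Tpsb2 (0.63), Cpa3 (0.62) and Cma1 (0.55). Mcpt1 ran slightly against Cma1 (-0.35) and was unrelated to Tpsb2 (-0.011). These coefficients are descriptions, since the cells come from 4 libraries and values per 10000 UMIs of abundant genes constrain one another. Pooled over the libraries, the cells with more Mcpt4 and Cma1 than Mcpt1 and Mcpt2 had 17269 CPM of Cma1, against 5587 CPM in the cells where Mcpt1 and Mcpt2 led, but 8642 against 9088 CPM of Mcpt4. Cma1 and Mcpt4 took part in the split, so the higher Cma1 level is largely built in and nothing is read from it. The cells with more Mcpt4 and Cma1 had 14303 against 9019 CPM of Cpa3, 13244 against 8436 CPM of Tpsb2 and 1088 against 1225 CPM of Kit. Mrgprb2, which encodes a receptor for basic secretagogues on connective tissue mast cells, was at 324 against 120 CPM. The libraries did not all show this. Cpa3 was higher in AT38 library 1 (11927 against 6131 CPM), vehicle library 1 (18094 against 10072 CPM) and vehicle library 2 (23431 against 9657 CPM), but lower in AT38 library 2 (5407 CPM in 4 cells against 9455 CPM in 18). Tpsb2 and Mrgprb2 followed Cpa3 in these directions, and Cma1 too was lower in those 4 cells. A single cell among the 4 had 31289 UMIs, 0.671% of them from members, while the others had 3313 to 13410 UMIs. That cell thus has the most weight among the 4 in AT38 library 2, and its part was not tested. The Mrgprb2 value there rests on 1 UMI, in another of the 4 cells.

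The tryptase genes were unequal, as Tpsab1 gave 7.66% as many UMIs as Tpsb2 in these cells. The figure was 8.80% and 8.79% in the AT38 libraries and 7.43% and 6.76% in the vehicle libraries. Tpsb2 had a median of 66.5 UMIs a cell and Tpsab1 of 4, and their levels went together across cells (rho 0.63). Tpsb2 was not detected in 12 cells, 8 of which had more than 10 chymase-family UMIs.

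Mcpt8 was concentrated in few cells. It had 532 UMIs in 29 of the 110 cells, and 5 cells held 86.8% of them, with 163 UMIs in a cell of AT38 library 2, 122 and 77 in cells of vehicle library 2, and 66 and 34 in cells of vehicle library 1. A sixth cell, in AT38 library 1, had 15. All 6 also had more than 10 UMIs of Cpa3 and more than 10 of the chymase-family genes, and Kit was present in each (3 to 31 UMIs). Abundant Mcpt8 was thus not found here without Kit, Cpa3 and a chymase-family gene. The cell with 34 and that with 15 had no UMI of Mcpt1, Mcpt4 or a tryptase gene. Their chymase-family UMIs were nearly all Cma1 (28 and 25 UMIs). The cell with 163 and that with 122 had 23416 and 24138 UMIs in all, well above the class median of 6244.5. At the other end, 4 cells (1 in AT38 library 1, 2 in vehicle library 1 and 1 in vehicle library 2) had no UMI of any chymase-family gene, tryptase gene or Kit. Each of these had Gata2 (3 to 11 UMIs), Hdc, the histidine decarboxylase gene (8 to 40), Ms4a2 (1 or 2) and a little Cpa3 (1 to 5), and 3 of them had Mcpt8 (2 to 5 UMIs).

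The genes other than members that were most like them over all 14235 kept cells, by Pearson's r of log-scaled UMIs per 10000, began with Fcer1a for 7 of the 8. The coefficient with Fcer1a was 0.845 for Cpa3, 0.818 for Mcpt4, 0.796 for Cma1, 0.791 for Tpsb2, 0.674 for Mcpt2, 0.654 for Tpsab1 and 0.603 for Mcpt1. For Mcpt4 the next, members left out, were Ms4a2 (0.768), Atp8b5 (0.719), Gata2 (0.707) and the vesicular monoamine transporter gene Slc18a2 (0.675), while among members Cpa3 stood at 0.786, Tpsb2 at 0.771 and Cma1 at 0.756. Mcpt8 had lower coefficients with its likest genes, with Gata2 highest among genes other than members at 0.363, Hs6st2 at 0.349, Fcer1a at 0.348, the cathepsin G gene Ctsg at 0.344 and Cd200r3 at 0.333, beside 0.357 with Cpa3 and 0.356 with Cma1 among members. Most points are cells with 0 UMIs of both genes, so the coefficients mainly reflect the same rare cells.

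With AT38, the summed protease level of whole libraries was 636 and 699 CPM, against 1043 and 1268 CPM with vehicle. Sums over a library cannot tell fewer mast cells from less RNA per mast cell, and the values within the class follow below. The edgeR quasi-likelihood test, fitted across 14501 genes with Benjamini-Hochberg adjustment over all of them, called 1.74% of genes changed, 0.428% higher and 1.32% lower. Of the 8 members 1 was lower past adjusted p of 0.05 and none was higher. The median log2 fold change of the members was -0.83, beside 0.0016 over all genes tested. Both AT38 libraries lay below both vehicle libraries for 6 members, beside 23.8% of all genes tested, and above both for none, beside 23.0%. As the members were chosen with these values known, nothing is read from the counts.

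Mcpt4 was the member that passed. It had 52.3 and 50.9 CPM in AT38 libraries, against 108 and 117 CPM in vehicle libraries. The log2 fold change was -1.12 ± 0.06 (standard error, edgeR adjusted p = 0.00237), and -1.17 to -0.92 over the 10 alternatives. These refit the same 4 libraries, and the members were chosen with their values known, so the alternatives are no added support. The AT38 libraries nearly coincided and lay below both vehicle libraries. Cpa3 had 67.5 and 74.1 CPM with AT38, against 144 and 112 CPM with vehicle (-0.85 ± 0.14, edgeR adjusted p = 0.0820). It was under 0.05 in 5 of 10 alternatives, among them without vehicle library 1 (0.0112) and without vehicle library 2 (0.00166). With a library left out, the lone library of its group is assumed to vary like the other group, so such p-values show dependence on a library and are no added support. The groups of Cpa3 did not overlap, and nor did those of either tryptase gene. Tpsb2 had 65.9 and 58.1 CPM with AT38, against 138 and 110 CPM with vehicle (-0.99 ± 0.13, edgeR adjusted p = 0.0516). It was under 0.05 in 7 of 10 alternatives, among them without vehicle library 1 (0.00722) and without vehicle library 2 (0.00169). Tpsab1 had 6.46 and 5.32 CPM with AT38, against 11.2 and 8.30 CPM with vehicle (-0.71 ± 0.18, edgeR adjusted p = 0.131, under 0.05 in 2 of 10 alternatives).

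The other chymase-family genes varied more between libraries of a group. Cma1 had 68.5 and 37.0 CPM with AT38, against 142 and 95.6 CPM with vehicle (-1.16 ± 0.50, edgeR adjusted p = 0.485), the largest point estimate with a wide error. Mcpt2 had 207 and 235 CPM with AT38, against 283 and 495 CPM with vehicle (-0.81 ± 0.36, edgeR adjusted p = 0.475). In both genes the groups did not overlap, but the spread between the libraries of a group was large. Without vehicle library 1 the estimate for Mcpt2 was -1.16 (edgeR adjusted p = 0.00209). Mcpt1 had 166 and 230 CPM with AT38, against 213 and 322 CPM with vehicle (-0.43 ± 0.32, edgeR adjusted p = 0.660). Mcpt8 had 1.91 and 8.42 CPM with AT38, against 4.98 and 8.48 CPM with vehicle (-0.41 ± 0.93, edgeR adjusted p = 0.900), and its estimate was positive without AT38 library 1 (0.32) and without vehicle library 2 (0.031). Both of these genes overlapped between the groups.

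**Figure D4:**
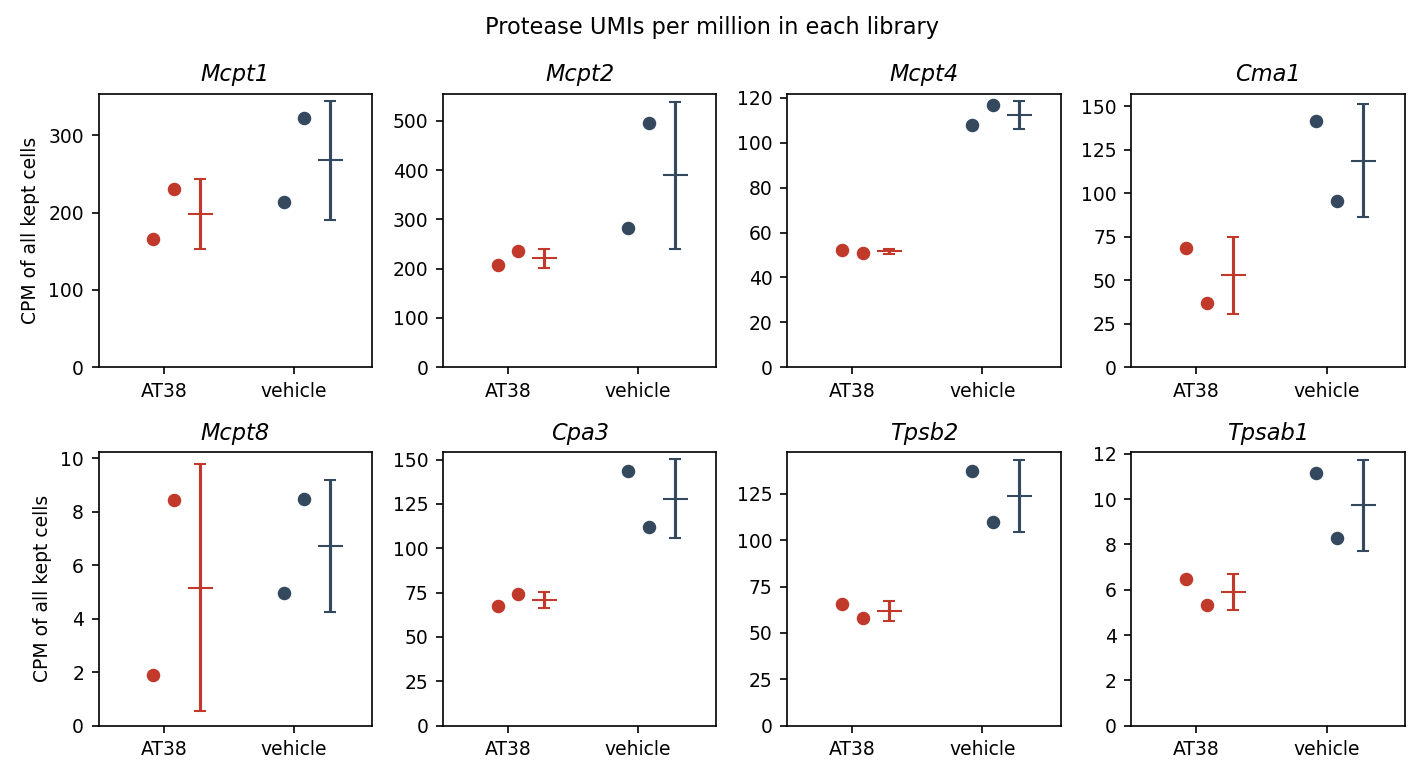
CPM of each protease over all kept cells of a library, 1 point per library, AT38 in red on the left and vehicle in dark blue on the right, with the mean and SD of 2 libraries beside the points. Mcpt4 lies at 52.3 and 50.9 CPM with AT38 and at 108 and 117 CPM with vehicle, and the points of Mcpt1 and Mcpt8 overlap between the groups.

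The share of mast cell and basophil-like cells was 0.713% and 0.709% of kept cells in AT38 libraries, against 1.07% and 0.678% in vehicle libraries. The log2 fold change of the share was -0.23 ± 0.29 (standard error; edgeR adjusted p = 0.523 over 9 classes, the unnamed clusters among them), and without vehicle library 1 it was 0.068. At up to 20% mitochondrial UMIs the class grew to 201 cells, with 1.23% and 1.18% of kept cells in AT38 libraries against 1.51% and 1.28% in vehicle libraries, which no longer overlapped (log2 fold change -0.19, edgeR adjusted p = 0.433). Cells with a UMI of Ms4a2 or Fcer1a were 1.03% and 1.03% with AT38, against 1.48% and 1.02% with vehicle, a difference of -0.219 percentage points (exact two-sided permutation p = 1.00).

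Within the class, UMIs were summed per library and tested across 3149 genes. The edgeR test called 0.0953% of these genes higher and 0.00% lower, and no member was called. At an unadjusted p under 0.05 there were 181 genes, 4 of them members, and DESeq2 called 3 genes. All 8 estimates were below 0, with a median of -0.58, beside 0.011 over all genes tested. Both AT38 libraries lay below both vehicle libraries for 5 members, beside 16.2% of all genes tested, and above both for none, beside 19.0%. The genes called were the gene model Gm42418, which overlaps ribosomal RNA sequence (1.29), the cyclooxygenase gene Ptgs2 (1.96) and the MHC class II gene H2-Ab1 of antigen-presenting cells (2.08), given as log2 fold changes. They are no members and were named after their values were seen.

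Markers of other cells were present in the class at low levels. Of the sums given here for other cells, only that of T cell markers separated the groups. The T cell and dendritic cell sums were both by far highest in AT38 library 1. All 8 T cell markers had a UMI, and their sum was 552 and 140 CPM with AT38, against 83.7 and 63.0 CPM with vehicle. Of the 10 dendritic cell markers 9 had a UMI, with Xcr1 at 0, and their sum was 816 and 129 CPM with AT38, against 194 and 130 CPM with vehicle. The dendritic cell chemokine genes Ccl22 (2.90, edgeR adjusted p = 0.101) and Ccl17 (3.38, edgeR adjusted p = 0.372), named after their values were seen, had positive estimates. All 10 neutrophil markers had a UMI, at 1446 and 2644 CPM with AT38, against 5133 and 2331 CPM with vehicle, and all 10 macrophage markers, at 274 and 156 CPM with AT38, against 132 and 893 CPM with vehicle. The 12 mast cell and basophil markers themselves summed to 5579 and 6067 CPM with AT38, against 7961 and 6646 CPM with vehicle. Their part in the protease values was not tested.

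Mcpt4 had 6390 and 5766 CPM in AT38 mast cell and basophil-like cells, against 10085 and 11520 CPM in vehicle ones (-0.85 ± 0.18, edgeR adjusted p = 0.117, range over 11 alternatives 0.00278 to 0.463). With 1 library in a group, assumed to vary like the other group, Mcpt4 had an edgeR adjusted p of 0.0108 without AT38 library 1 and of 0.0259 without vehicle library 1. Tpsb2 had 8052 and 6417 CPM with AT38, against 12874 and 10589 CPM with vehicle (-0.72 ± 0.18, edgeR adjusted p = 0.372, and 0.0166 without AT38 library 1). Cpa3 had 8276 and 8292 CPM with AT38, against 13319 and 11134 CPM with vehicle (-0.58 ± 0.17, edgeR adjusted p = 0.580). In these 3 genes, as in Cma1 and Tpsab1, the CPM of the groups did not overlap. Summed CPM give deep cells more weight. AT38 library 1 (204682 class UMIs) held cells of 21916 and 30996 UMIs, with 1.97% and 1.26% from members. AT38 library 2 (186081 class UMIs) held a cell of 31289 UMIs, with 0.671%. Vehicle cells with such low shares were less deep, at most 13204 UMIs (0.750%) in library 1 and 9958 UMIs (0.532%) in library 2. The part of such cells in the gaps was not tested. Median UMIs a cell did overlap for Mcpt4 (37 and 30.5 with AT38, 33 and 84 with vehicle). They also overlapped for Cpa3 (59 and 51.5 with AT38, 45 and 84.5 with vehicle) and Tpsab1 (5 and 3.5, against 4 and 4). The medians of Tpsb2 (50 and 51.5 with AT38, 53 and 87.5 with vehicle) and Cma1 (25 and 15, against 28 and 73.5) did not overlap. In both genes vehicle library 1 lay close to an AT38 library, and vehicle library 2 stood apart. Cma1 had 8301 and 4025 CPM with AT38, against 13112 and 9511 CPM with vehicle (-0.90 ± 0.36, edgeR adjusted p = 0.854), or -1.46 without AT38 library 1. A single cell of vehicle library 1 held 995 of that library's 2976 Cma1 UMIs, 719 of its 3023 Cpa3 UMIs and 537 of its 2922 Tpsb2 UMIs. Tpsab1 had 708 and 564 CPM with AT38, against 956 and 715 CPM with vehicle (-0.41 ± 0.25, edgeR adjusted p = 0.950).

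The mucosal chymase genes overlapped between the groups in these cells. Mcpt2 had 25088 and 26408 CPM with AT38, against 26188 and 49211 CPM with vehicle (-0.57 ± 0.29, edgeR adjusted p = 0.910), so vehicle library 2 alone stood apart, and without it the estimate was -0.053. Without vehicle library 1 it was -0.98 (edgeR adjusted p = 0.00375). Mcpt1 had 19772 and 25677 CPM with AT38, against 19786 and 31335 CPM with vehicle (-0.19 ± 0.23, edgeR adjusted p = 0.984), and the estimate was positive without AT38 library 1 (0.032) and without vehicle library 2 (0.18). Mcpt8 had 195 and 892 CPM with AT38, against 467 and 815 CPM with vehicle (-0.25 ± 0.95, edgeR adjusted p = 0.991). Its value rests on the few high cells. It was 0.50 without AT38 library 1, 0.21 without vehicle library 2 and -1.78 without AT38 library 2, whose top cell held 163 of 166 UMIs.

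**Figure D5:**
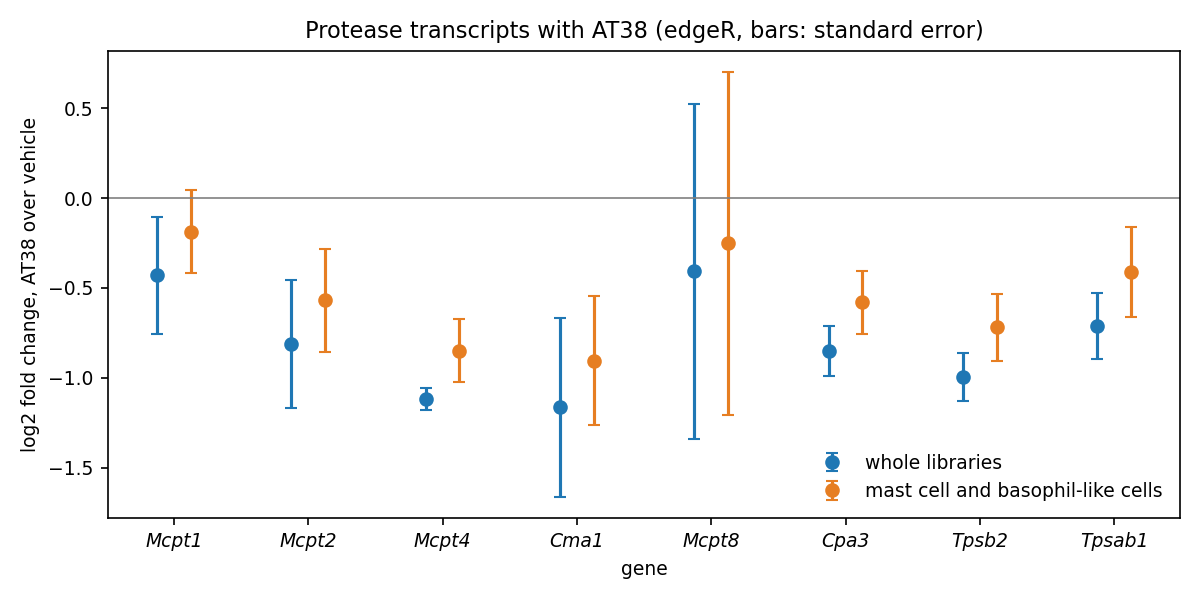
Log2 fold change of each protease, AT38 over vehicle, with its standard error from edgeR, over whole libraries (blue, left of each pair) and over mast cell and basophil-like cells (orange, right). All 16 estimates lie below 0, from -0.19 for Mcpt1 in the class to -1.16 for Cma1 in whole libraries, and Mcpt8 has the widest error.

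The other 50 genes of the mast cell and basophil list cover the IgE receptor, growth factor receptors, transcription factors, mediator enzymes, granule components and cytokines. All had a UMI, 17 had more than 50% of their UMIs in the mast cell and basophil-like cells, 10 had more than 90% there, and 27 had under 10%. Prss34, another basophil protease gene, had 99.3% of its 137 UMIs in the class, in 24 of 110 cells, and Mrgprb1, with 99.0% in the class, was in 20 cells. Both were named after their values were seen. In whole libraries 47 of the 50 were tested, of which none was higher and 2 were lower with AT38, and their median log2 fold change was -0.29. Hdc, which makes histamine, had 276 and 253 CPM with AT38, against 416 and 417 CPM with vehicle (-0.65 ± 0.07, edgeR adjusted p = 0.00649), but 4.79% of its UMIs were in the class. Il6 had 19.7 and 24.6 CPM with AT38, against 38.6 and 45.3 CPM with vehicle (-0.92 ± 0.13, edgeR adjusted p = 0.0290), with 6.59% of its UMIs in the class.

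Within the class 42 of the 50 were tested and none was called, 2 of them at an unadjusted p under 0.05, and their median was -0.32. Hdc had 1231 and 1075 CPM with AT38, against 2428 and 2165 CPM with vehicle (-1.01 ± 0.21, edgeR adjusted p = 0.114). Its AT38 libraries lay below both vehicle libraries. None of the named genes that mark the class passed. Fcer1a had 1085 and 1413 CPM with AT38, against 1727 and 1572 CPM with vehicle (-0.42 ± 0.22, edgeR adjusted p = 0.904). Ms4a2 had 528 and 473 CPM with AT38, against 560 and 530 CPM with vehicle (-0.14 ± 0.24, edgeR adjusted p = 0.984). Kit had an estimate of -0.18 ± 0.22, Gata2 of -0.23 ± 0.23 and Cd200r3 of -0.43 ± 0.26, none of which passed the edgeR test (adjusted p of 0.950 to 0.984).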

How the data were processed

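CD45-enriched cells of 4 libraries were profiled with the 10x Genomics 3' kit v3.1. The authors deposited raw UMI counts (a gene by barcode matrix for each library), made with Cell Ranger 3.1.0 on mm10 per the submitters' processing notes. Every deposited barcode had at least 500 UMIs. Barcodes with at least 200 genes and at most 10% mitochondrial UMIs were kept, and the highest scrublet scores were removed at 0.8% per 1000 barcodes (683 barcodes). Cells were clustered with scanpy 1.11.5 (2000 variable genes, 30 components, 15 neighbours, Leiden resolution 1, no integration). A cluster was named when at least 3 markers were detected in at least 10% of its cells. Clusters led by proliferation or T cell genes under another name stayed unnamed, a rule made with the clusters in view, and monocyte and macrophage clusters were joined as mononuclear phagocytes.

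UMI counts were summed per library and tested with edgeR 4.0.16 (quasi-likelihood, TMM, filterByExpr, threshold 0.05, two-sided). Standard errors are the log2 fold change divided by the square root of F. DESeq2 1.42.0 and the other alternatives are given in the closing section, and the tests were first checked on simulated data. Where leaving out a library left 1 in a group, that library is assumed to vary like the other group. Nothing says that pools of a group were independent experiments. All 8 members are named whatever their values, as are the 5 likest genes of some members and listed genes that passed. The members, lists and tests were chosen with earlier results of these data known. Intervals cover counting error only. Positions are from GENCODE M21, in which 31011 of 31053 gene IDs were found.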

Additional observations from a re-analysis of the deposited data

How the results depend on the processing

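Genes called in whole libraries numbered 253, against 473 with DESeq2, 802 without a filter on low counts and 386 over all deposited barcodes. They numbered 204 to 348 when 1 library was left out. In mast cell and basophil-like cells 3 were called, against 48 without the filter, 22 to 73 with 1 library left out, 0 in receptor-positive cells, and, chosen after seeing the data, 0 in clusters at up to 20% mitochondrial UMIs and 8 without TMM. Library pairs with the same number did not deviate together (correlation -0.034 in whole libraries and 0.028 in the class), so the numbers were not used as pairs. With the replicate number as a block, 291 genes were called in whole libraries and 41 in the class. In whole libraries the block gave edgeR adjusted p of 0.0298 for Mcpt1, 0.00533 for Cma1 and 0.00290 for Tpsb2, and in the class of 0.0228 for Cma1. It changed no other member's call.

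The alternatives refit the same 4 libraries for members chosen with their values known, so nothing is read from counts of their signs. Of the members' estimates under alternatives, 78 of 80 in whole libraries and 84 of 88 in the class were negative. The exceptions were Mcpt8 in whole libraries (0.32 without AT38 library 1 and 0.031 without vehicle library 2, in a range of -1.82 to 0.32 with 1 library left out) and, in the class, Mcpt1 (0.032 and 0.18, range -0.50 to 0.18) and Mcpt8 (0.50 and 0.21, range -1.78 to 0.50) without the same libraries. The cause was not tested. Over all deposited barcodes, estimates in whole libraries were smaller in size, as for Mcpt4 (-0.92), Cpa3 (-0.75) and Tpsb2 (-0.75). The share of the class ranged from -0.58 to 0.068 (log2) with 1 library left out, and that of receptor-positive cells from -0.449 to 0.0115 percentage points, both positive without vehicle library 1. The share of member UMIs in receptor-positive cells was 96.4% to 96.7% with 1 library left out, 94.5% with Ms4a2 alone, 94.6% with Fcer1a alone, 95.8% at 2 or more receptor UMIs, 95.6% in all deposited barcodes and 85.9% after thinning to 1000 UMIs, which also removes receptor UMIs. The low number of mast cell and basophil-like cells, 22 to 32 a library, limits what the comparison within the class can show.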
